A study of Mus musculus with 38 samples.

Results

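Between 60 h and 72 h of exposure to retinoic acid (RA), 306 of the 6181 genes that could be compared were at least 1.5-fold higher or at least 1.5-fold lower at 72 h in each of 2 assays, bulk RNA-seq of the culture and SCRB-seq of single cells. A gene was compared where it had at least 20 unique molecular identifiers (UMIs, each standing for 1 captured mRNA molecule) in the larger library of each of the 2 assays, and the tables list 23481 genes in all. Of the 306, 202 were higher at 72 h and 104 were lower. These are 3.27% and 1.68% of the genes compared, and since the folds themselves chose the members, no test rests on these shares.

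All samples are cells of the mouse embryonic stem (ES) cell line E14. The undifferentiated cells (mESCs) grew in medium with LIF and the MEK and GSK3 inhibitors (2i). Differentiating cells were kept in N2B27 medium with 0.25 µM RA without these additions, and the medium was refreshed at 48 h. The mESCs were measured in 2 bulk libraries and on 1 SCRB-seq plate of single cells, and each time point in RA in 1 bulk library and, apart from 84 h, on 1 plate. A further 4 libraries hold cells sorted at 72 h by antibodies against PDGFRA and CD24, 1 per fraction, and 4 hold cells sorted at 96 h, 2 XEN-like (PDGFRA+/CD24-) and 2 ectoderm-like (CD24+/PDGFRA-).

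RA binds nuclear receptors that sit on DNA and switch on genes such as Stra8 and the Hox genes, and mESCs exposed to it leave pluripotency. In this system they give rise to ectoderm-like cells and to cells that resemble extraembryonic endoderm (XEN), the lineage of the yolk sac. Endoderm of the yolk sac is known for the basement membrane it lays down, a sheet of type IV collagen, laminins and SPARC, and for taking up proteins through receptors such as cubilin.

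The bulk libraries at 60 h and 72 h held 1665383 and 1835220 UMIs. At 60 h, 273 wells of the plate passed a minimum of 2000 UMIs, with a median of 4372 UMIs per well, and at 72 h 235 wells did, with a median of 3706. Their summed counts came to 1628283 and 1248683 UMIs. With 1 library and 1 plate per time point there is no replicate of the step from 60 h to 72 h, and the folds carry exact 95% intervals that cover counting error only and leave out differences between cultures. In the pools, cells add a further spread that these intervals do not hold. In a bulk library, fewer cells of a type and less RNA per cell cannot be told apart. The summed level of the 11 XEN markers went from 1338 to 3445 CPM (UMIs per 1000000 of the library total) in the bulk libraries and from 1626 to 2468 CPM in the pools, and that of the 12 ectoderm markers from 2849 to 2753 and from 3111 to 3956. No gene of a list of 10 blood and endothelial markers reached 20 UMIs in both assays, and of 10 trophoblast markers Ascl2 alone did.

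Among the 202 higher members the fold ranged from 1.5 to 8.87 in the bulk libraries (median 1.81) and from 1.5 to 39.8 in the SCRB-seq pools (median 2.08). Among the 104 lower members it ranged from 1.5 to 5.51 in bulk (median 1.79) and from 1.51 to 33.7 in the pools (median 2.25). The median gene of all 6181 was 1.06-fold higher in bulk and 1.04-fold higher in the pools. Fbxo6, with folds of 1.5 and 2.41, stood just inside the limit for higher genes and Renbp, with 2.10 and 1.4996, just outside. For lower genes Apoa1bp stood just inside (1.5 and 2.23) and Mapk12 just outside (2.17 and 1.49). With edgeR's TMM factors in place of library totals the split of the members was 154 higher and 144 lower (51.7% higher against 66%). The 2 assays did not order all genes alike. Of all genes compared, 55.5% had the same sign in both, and 161 passed the fold in opposite directions, 115 of them higher in bulk and lower in the pools. Among genes with at least 50 UMIs in both assays 58.4% had the same sign, 52 were higher members, 30 were lower members and 19 passed in opposite directions. Within a single assay the shares of all genes were larger: in bulk 10.7% passed the limit upwards and 4.56% downwards, and in the pools 19.7% and 16.9%. The bulk interval left out 1 for 125 of the higher and 66 of the lower members.

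**Figure D1:**
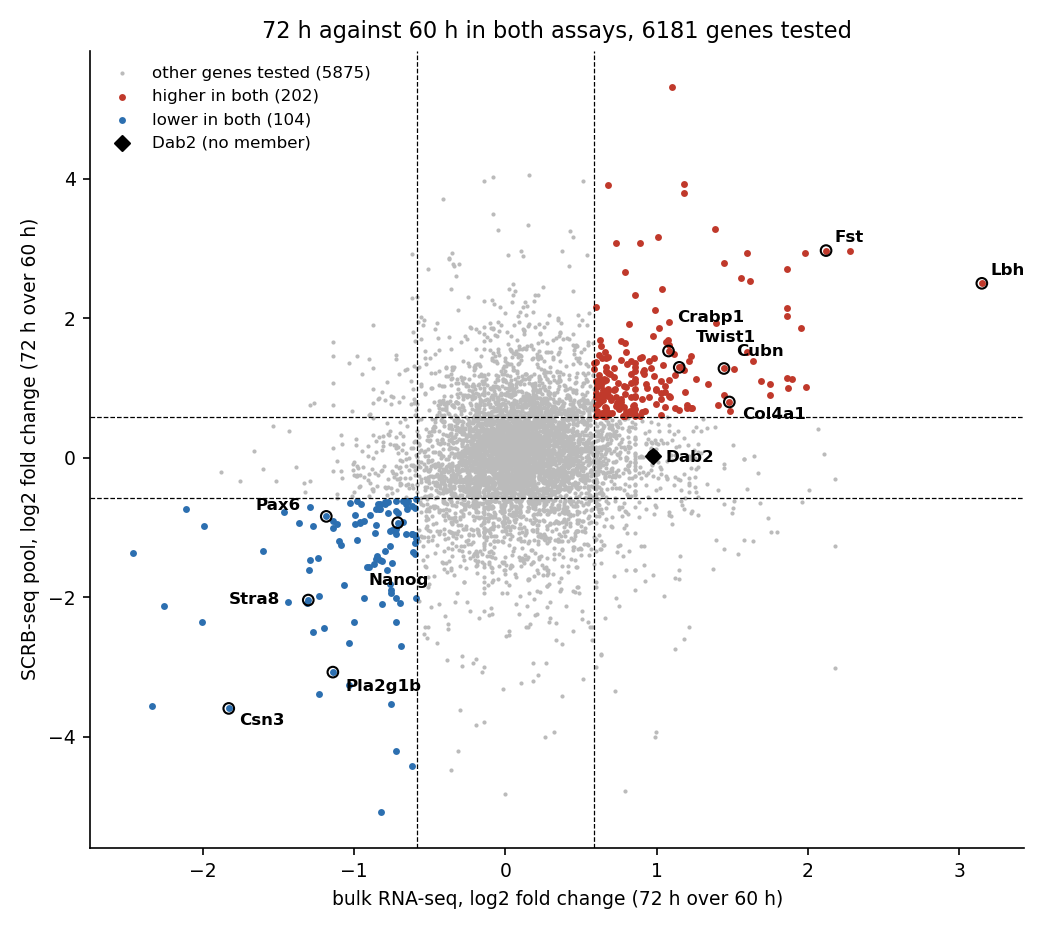
Log2 fold change from 60 h to 72 h in bulk RNA-seq (horizontal axis) and in the SCRB-seq pool (vertical axis), 1 point per gene, 6181 genes; dashed lines mark the 1.5-fold limit. The 202 genes in the upper right corner and the 104 in the lower left are the members, and Dab2 (diamond) lies at 1.02-fold in the pools and so outside.

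The higher members included both chains of type IV collagen and 2 laminin chains of the basement membrane. Of 11 XEN markers that could be compared, 5 were members, all higher, and they are 5 of the 11 basement membrane genes compared as well: Col4a1, Col4a2, Lama1, Lamc1 and Sparc. Of the same 11 basement membrane genes 9 passed the limit upwards in bulk, while in the pools 5 passed it upwards and 2 downwards, Nid1 (1.89-fold in bulk and 0.343-fold in the pools) and Smoc1 (0.907- and 0.459-fold). The median of the 11 XEN markers was 1.19 in bulk and 0.43 in the pools on the log2 scale, against 0.09 and 0.05 for all genes. Col4a1 and Col4a2 encode the chains of the common type IV collagen and lie head to head on chromosome 8, Col4a1 at chr8:11198423-11312889 on the minus strand and Col4a2 at chr8:11312805-11449287 on the plus strand (GRCm38.p6). Their windows from 250 bases before to 50 bases after a RefSeq transcript start (GRCm38.p6) are shown because the genes move together. The start behind the Col4a1 window lies 63 bases inside the end of the gene's range given above. The windows overlap by 78 bases, written in capitals, which are the same stretch of DNA (chr8:11312777-11312854) read on opposite strands.
Col4a1, chr8:11312777-11313076, minus strand: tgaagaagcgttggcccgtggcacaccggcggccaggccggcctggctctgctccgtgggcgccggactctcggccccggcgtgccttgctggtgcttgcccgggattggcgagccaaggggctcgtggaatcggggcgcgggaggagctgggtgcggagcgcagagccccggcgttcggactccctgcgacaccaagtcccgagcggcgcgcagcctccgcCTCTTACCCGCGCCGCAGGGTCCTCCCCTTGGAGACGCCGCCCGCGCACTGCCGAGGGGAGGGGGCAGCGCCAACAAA
Col4a2, chr8:11312555-11312854, plus strand: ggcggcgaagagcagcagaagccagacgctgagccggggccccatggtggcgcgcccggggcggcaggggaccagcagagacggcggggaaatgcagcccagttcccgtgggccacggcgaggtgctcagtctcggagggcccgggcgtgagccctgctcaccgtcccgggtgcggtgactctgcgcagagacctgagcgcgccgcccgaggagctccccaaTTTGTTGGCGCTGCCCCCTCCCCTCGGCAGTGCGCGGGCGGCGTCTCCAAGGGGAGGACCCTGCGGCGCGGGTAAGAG

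Col4a1 had 253 UMIs in the bulk library at 60 h and 778 at 72 h, or 152 and 424 CPM, a fold of 2.79 (95% interval 2.42 to 3.23). On the plates it had 433 UMIs in 134 wells and 577 UMIs in 125 wells, a fold of 1.74 (1.53 to 1.97). The level in bulk had been 40.3 CPM at 48 h and went on to 748 at 84 h and 1563 at 96 h, while both mESC libraries stood at 7.44 or below. Col4a2 had 87 and 212 UMIs in bulk (2.21-fold, 1.72 to 2.87) and 203 and 249 on the plates (1.60-fold, 1.32 to 1.93). For both collagen chains the fold was larger in bulk than in the pools, though the intervals overlap for Col4a2. Lama1, the laminin alpha chain of early basement membranes, went from 101 to 230 CPM in bulk (2.28-fold) and from 1.87 to 3.58 UMIs per 10000 in the pools (1.91-fold). Lamc1, the gamma chain, went from 64.2 to 170 CPM (2.65-fold) and from 1.52 to 2.56 per 10000 (1.68-fold). Sparc, a collagen-binding glycoprotein and the most abundant of the 5, went from 619 to 1735 CPM (2.80-fold, 2.61 to 3.01) and from 4.29 to 6.82 per 10000 (1.59-fold, 1.43 to 1.76). In each of these 5 genes the bulk level was higher at every later time from 48 h to 96 h.

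Enzymes and chaperones that modify and fold collagen in the endoplasmic reticulum were higher in part. Of the 12 compared, 3 were members, all higher. In bulk 8 passed the limit upwards, against 10.7% of all genes, and in the pools 3 passed it upwards and 2 downwards, shares near the 19.7% and 16.9% of all genes. Plod2, a lysyl hydroxylase, had 44 and 177 UMIs in bulk (3.65-fold, 2.61 to 5.20) and 116 and 178 on the plates (2.00-fold, 1.57 to 2.55). Its level in bulk had moved from 14.9 CPM at 24 h to 26.4 at 60 h and stood at 96.4 at 72 h. P4ha1, the catalytic subunit of a prolyl hydroxylase, went from 72 to 158 UMIs (1.99-fold) and from 46 to 60 (1.70-fold). Serpinh1, which encodes the collagen chaperone HSP47, went from 215 to 457 (1.93-fold) and from 206 to 288 (1.82-fold). Plod1, another lysyl hydroxylase, was no member, with a fold of 0.99 in bulk and 0.33 in the pools.

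Of 10 genes of yolk sac endocytosis and carriers compared, Cubn and Ttr were members, and of 9 parietal endoderm genes Fst and Pth1r, all higher. Fst, which encodes follistatin, an extracellular binder of activin, had 19 UMIs at 60 h and 91 at 72 h in bulk (4.35-fold, 2.63 to 7.55). On the plates it had 11 UMIs, 54.5% of them from 1 well, and then 66 UMIs spread over 30 wells (7.82-fold, 4.10 to 16.4). In bulk Fst stood at 0.813 CPM at 48 h and reached 173 at 96 h. It was not absent before, as 17.4% of kept wells on the mESC plate had a UMI of Fst. That share was 0.722% at 48 h and 12.8% at 72 h. Cubn, the endocytic receptor cubilin, went from 23 to 69 UMIs in bulk (2.72-fold) and from 85 to 158 on the plates (2.42-fold). Pth1r, the receptor for parathyroid hormone-related protein that marks parietal endoderm, went from 39 to 99 (2.30-fold) and from 40 to 50 (1.63-fold). Some higher members outside these lists had a like course. Epas1, a hypoxia-inducible transcription factor, went from 7 to 28 and from 13 to 65 (3.63- and 6.52-fold). Fam134b, a receptor for the turnover of endoplasmic reticulum, went from 32 to 70 and from 15 to 50 (1.99- and 4.35-fold). Another 2 genes, Cryab (3.87- and 3.63-fold), a small heat shock protein, and F3 (4.84- and 7.82-fold), the tissue factor that starts blood clotting, were picked once their values were known. The genes of this paragraph other than Ttr were low at 48 h, between 0.813 and 17.1 CPM. They were highest at 96 h among the bulk libraries from 24 h to 96 h. Ttr, described below, was also higher at 96 h than at 48 h in bulk, by 6.76 on the log2 scale.

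Transcription factors of endoderm gave a mixed picture. Foxa2 went from 9 to 30 UMIs in bulk (3.02-fold, 1.4 to 7.24) and from 51 to 112 on the plates (2.86-fold, 2.04 to 4.07). Cited2, a transcriptional co-regulator, passed narrowly with folds of 1.85 and 1.5. Gata4 was 4.31-fold higher in bulk and 1.03-fold in the pools, and Gata6 2.04- and 0.85-fold, so neither was a member. Ttr, a carrier of thyroid hormone and retinol made by visceral endoderm, went from 14 to 61 UMIs in bulk (3.95-fold) and from 8 to 47 on the plates (7.66-fold), 31.9% of the latter from 1 well. In the cells sorted at 72 h Ttr was lowest in the PDGFRA+ fraction.

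Several defining XEN markers passed the limit in bulk but not upwards in the pools. Dab2, an endocytic adaptor, had 248 and 538 UMIs in bulk (1.97-fold, 1.69 to 2.30), whereas on the plates it had 190 UMIs in 69 wells and 148 UMIs in 63 wells, a fold of 1.02 (0.814 to 1.27). It is therefore not among the 306. Lamb1, the laminin beta chain, was 2.51-fold higher in bulk and 1.35-fold in the pools. Pdgfra, the receptor on which cells were sorted, was 2.24-fold higher in bulk (1.29 to 4.05) and 1.60-fold lower in the pools (1.06 to 2.47). Of the 11 XEN markers, 10 passed the limit upwards in bulk, against 10.7% of all genes, and 5 did in the pools, against 19.7%. The bulk cultures and the plated cells are not said to be the same cultures, and the part of this in the difference was not tested.

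**Figure D2:**
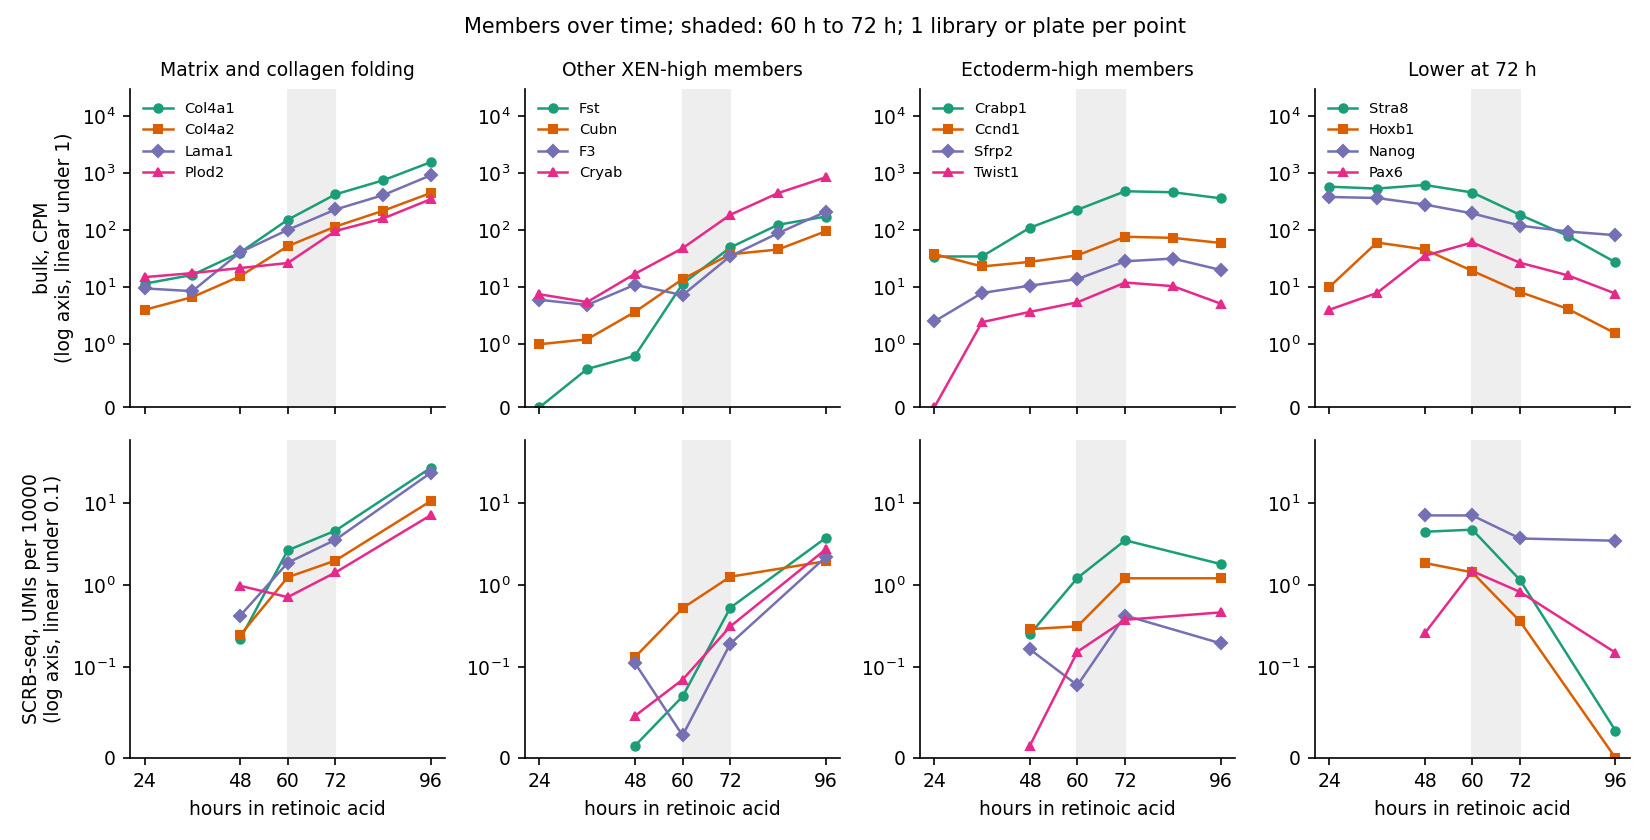
Levels over time of 16 members in bulk (upper row, CPM) and in the SCRB-seq pools (lower row, UMIs per 10000), on log axes that are linear near 0, with 60 h to 72 h shaded. Each point is 1 library or 1 plate. In bulk, the matrix and other XEN-high genes are highest at 96 h, and the lower members decline from 60 h on or earlier. Of the ectoderm-high genes, Crabp1 and Twist1 are highest in bulk at 72 h and lower at 84 h and 96 h.

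A further set of higher members belongs to the ectoderm side. Crabp1, a cytoplasmic binding protein for RA, was its most abundant gene named here, with 379 UMIs at 60 h and 882 at 72 h in bulk (2.11-fold, 1.87 to 2.39). On the plates it had 199 UMIs in 83 wells and 440 UMIs in 124 wells (2.88-fold, 2.43 to 3.43). Its bulk level peaked at 72 h, with 481 CPM, and was 462 at 84 h and 362 at 96 h. Lbh, a transcriptional co-regulator, had the largest bulk fold of all members, from 9 to 88 UMIs (8.87-fold, 4.47 to 20.0), and went from 12 to 52 on the plates (5.65-fold, 2.98 to 11.6). Ccnd1, the cyclin D1 of the G1 phase, went from 60 to 140 (2.12-fold) and from 51 to 151 (3.86-fold). Sfrp2, a secreted antagonist of Wnt ligands, went from 23 to 52 (2.05-fold) and from 13 to 53 (5.32-fold). Igfbp5, a binding protein for insulin-like growth factors, went from 61 to 136 (2.02-fold) and from 37 to 103 (3.63-fold). Ptn, a heparin-binding growth factor, went from 57 to 120 (1.91-fold) and from 52 to 80 (2.01-fold). Of the 11 ectoderm markers compared, Crabp1 was the only higher member and Pax6 the only lower one, and the median of the list was 0.08 in bulk and 0.38 in the pools on the log2 scale. Of 8 neural progenitor genes compared, Ptn and Sox2 were members, both higher. Sox2, a factor of both pluripotency and neural progenitors, was 1.53-fold higher in each assay, and the bulk interval of 0.990 to 2.39 includes no change.

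The orphan nuclear receptors Nr2f1 and Nr2f2 (COUP-TFI and COUP-TFII), which RA is known to induce, were the higher members among the retinoid genes. Nr2f2 went from 35 to 82 UMIs in bulk (2.13-fold, 1.41 to 3.26) and from 73 to 102 on the plates (1.82-fold, 1.34 to 2.50). Nr2f1 went from 16 to 29 (1.64-fold, 0.864 to 3.24) and from 81 to 122 (1.96-fold, 1.47 to 2.63). Both stood at less than 1 CPM in the mESC libraries.

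Of a list of 21 genes of neural crest and mesenchyme, only 5 had enough UMIs to be compared. Of these 5, 3 were members, all higher, against 3.27% of all genes. Twist1, a basic helix-loop-helix factor of mesenchyme, is a low gene here. It had 9 and 22 UMIs in bulk (2.22-fold), with an interval of 0.982 to 5.47 that includes no change, and 25 UMIs in 17 wells and 47 UMIs in 25 wells on the plates (2.45-fold, 1.48 to 4.16). In bulk it was highest at 72 h, with 12.0 CPM, and stood at 10.4 at 84 h and 5.12 at 96 h. The plates showed no such fall, as 10.6% of kept wells had a UMI of Twist1 at 72 h and 12.4% at 96 h. Msx1, a homeobox factor, went from 12 to 20 UMIs (1.51-fold, 0.704 to 3.39) and from 56 to 111 (2.58-fold, 1.86 to 3.63). Tagln, an actin-binding protein of smooth muscle, went from 24 to 89 (3.37-fold) and from 30 to 43 (1.87-fold), with 41.9% of the latter from 1 well. Acta2, the smooth muscle actin of the same list, was 3.18-fold higher in bulk and 0.86-fold in the pools and was no member.

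Tpm1, which encodes a tropomyosin of actin filaments, went from 195 to 545 UMIs in bulk (2.54-fold) and from 127 to 203 on the plates (2.08-fold). Cnn2, a calponin, was 2.11- and 3.20-fold higher, and App, the amyloid precursor protein, 2.00- and 1.99-fold. Cdkn1a, the cell cycle inhibitor p21 and the single member among 7 p53 targets compared, was 2.30- and 1.69-fold higher. Cyr61, a matricellular target of YAP and the single member among 7 YAP and TGF-beta targets, was 2.35- and 1.63-fold higher. Of these 7 targets 3 passed the limit upwards in bulk and 5 in the pools, against 10.7% and 19.7% of all genes. Of the 7 p53 targets 2 and 4 did, and none of either list passed downwards. Among 17 imprinted genes 2 were members, Peg3 (1.66- and 1.83-fold) and Igf2r (1.78- and 2.09-fold), both higher. In bulk 3 of the 17 passed the limit upwards and none downwards, against 10.7% and 4.56% of all genes. In the pools 3 passed it upwards and 7 downwards, against 19.7% and 16.9%. Klf4, a pluripotency factor, went from 8 to 20 UMIs in bulk (2.27-fold, 0.957 to 5.95) and from 25 to 46 on the plates (2.40-fold, 1.44 to 4.08). Its 10.9 CPM at 72 h lay far below the 64.7 and 74.9 of the mESC libraries.

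Early targets of RA were among the lower members. Of 12 retinoid genes compared, 4 were lower members, Stra8 and Hoxb1 among them. Stra8, a regulator of entry into meiosis known for its direct induction by RA, lost the most molecules among them. In bulk it had 761 UMIs at 60 h and 340 at 72 h, 2.47-fold lower (2.17 to 2.81). On the plates it had 774 UMIs in 176 of 273 wells and then 144 UMIs in 66 of 235 wells, 4.12-fold lower (3.45 to 4.96). The bulk level stayed between 457 and 620 CPM from 24 h to 60 h and was 185 at 72 h, 79.3 at 84 h and 27.2 at 96 h. RA receptors bind pairs of the hexamer AGGTCA or close variants of it. A window at a Stra8 start is shown because it holds this hexamer, written in capitals, 194 and 38 bases before the RefSeq transcript start on which it is placed. That start lies 785 bases inside the gene's whole RefSeq range.
Stra8, chr6:34920698-34920997, plus strand (RefSeq, GRCm38.p6): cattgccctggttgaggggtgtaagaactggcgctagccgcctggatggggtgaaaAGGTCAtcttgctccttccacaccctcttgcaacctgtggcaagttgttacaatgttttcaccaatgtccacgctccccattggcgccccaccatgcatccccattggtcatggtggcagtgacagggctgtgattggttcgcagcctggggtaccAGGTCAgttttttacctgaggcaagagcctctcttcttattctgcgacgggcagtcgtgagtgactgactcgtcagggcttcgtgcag
AGGTCA was searched on both strands, where it reads TGACCT on the other. It occurs in 4900 of 27025 such windows of all genes in the table (18.1%). Of the members that could be matched it occurs in 25 of 156 higher (16.0%) and 14 of 69 lower ones (20.3%), shares near that of all genes, so the match at Stra8 is a description of this window.

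Among 8 Hox genes compared, 3 were members, all lower. In bulk 7 passed the limit downwards, against 4.56% of all genes, and in the pools 3 did, against 16.9%. Hoxb1, a 3′ Hox gene that responds early to RA, went from 32 to 15 UMIs in bulk (2.35-fold lower, 1.24 to 4.67) and from 233 to 45 on the plates (3.97-fold lower, 2.88 to 5.59). Hoxb6 went from 47 to 12 (4.32-fold lower, 2.25 to 8.94) and from 61 to 28 (1.67-fold lower, 1.05 to 2.71). They did not start to decline together. Hoxb1 was highest in bulk at 36 h, with 60.5 CPM. Hoxb6 stood at 29.3 at 48 h and 28.2 at 60 h before it came to 6.54 at 72 h. Cyp26a1, the enzyme that degrades RA, was 1.43-fold lower in bulk and 2.05-fold lower in the pools and so was no member.

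Pax6, a homeobox factor of neural and eye tissue, was a transient gene in this course. Its bulk level went from 7.87 CPM at 36 h to 60.6 at 60 h and back to 26.7 at 72 h and 7.69 at 96 h. From 60 h to 72 h it went from 101 to 49 UMIs in bulk (2.27-fold lower) and from 241 UMIs in 99 wells to 103 in 52 wells (1.79-fold lower). Nanog, a pluripotency factor, went from 327 to 220 UMIs in bulk (1.64-fold lower) and from 1154 to 463 on the plates (1.91-fold lower). Of the 5 pluripotency genes compared, Nanog was lower while Klf4 and Sox2 were higher. Stmn2, a tubulin-binding protein of neurons, was 1.70- and 3.51-fold lower, and was highest in mESCs, with 358 and 850 CPM.

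Zscan4 genes mark a rare state of ES cells that resembles the embryo at the 2-cell stage. Of 4 genes of that list compared, Zscan4c, Zscan4d and Zscan4f were members, all lower, and the named genes include Zscan4a as well. Zscan4c went from 107 to 70 UMIs in bulk (1.68-fold lower, 1.23 to 2.31) and from 322 UMIs in 82 wells to 120 UMIs in 30 wells (2.06-fold lower, 1.66 to 2.56). Single wells weighed heavily, with 26.4% of the Zscan4c UMIs from 1 well at 60 h and 30.0% at 72 h. Zscan4f was 2.16- and 1.94-fold lower and Zscan4a 1.99- and 1.94-fold. For Zscan4d the folds were 1.52 and 2.35, and its bulk interval of 0.869 to 2.68 includes no change. The genes are near-identical copies in 1 cluster on chromosome 7, so reads may be split among them and their values are not separate evidence. The windows at the starts of Zscan4c and Zscan4f show this likeness: shifted by 23 bases, 275 of 277 aligned bases are identical. The capitals mark TGACCT, which is AGGTCA on the other strand.
Zscan4c, chr7:11005495-11005794, plus strand (RefSeq, GRCm38.p6): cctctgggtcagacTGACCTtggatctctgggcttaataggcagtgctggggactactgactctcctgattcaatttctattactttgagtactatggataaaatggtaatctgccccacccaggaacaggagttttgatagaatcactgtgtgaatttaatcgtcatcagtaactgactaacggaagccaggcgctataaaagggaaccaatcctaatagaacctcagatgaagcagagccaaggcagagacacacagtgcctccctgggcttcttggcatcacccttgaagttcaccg
Zscan4f, chr7:11397665-11397964, plus strand (RefSeq, GRCm38.p6): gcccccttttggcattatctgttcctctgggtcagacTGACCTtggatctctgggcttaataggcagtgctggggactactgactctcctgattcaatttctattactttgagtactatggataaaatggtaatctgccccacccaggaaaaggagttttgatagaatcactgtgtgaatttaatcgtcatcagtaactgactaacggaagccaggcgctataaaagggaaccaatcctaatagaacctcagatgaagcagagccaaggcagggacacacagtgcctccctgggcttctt

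The remaining lower members that are named span several functions. Csn3, the milk protein kappa-casein, went from 58 to 18 UMIs in bulk (3.55-fold lower) and from 142 UMIs in 66 wells to 9 in 8 wells (12.1-fold lower, 6.2 to 27.0). Pla2g1b, a secreted phospholipase, went from 174 to 87 (2.20-fold lower) and from 77 to 7 (8.44-fold lower, 3.9 to 21.7). Car3, a carbonic anhydrase, went from 152 to 73 (2.29-fold lower) and from 177 to 25 (5.43-fold lower, 3.56 to 8.62). The transcript 1700011H14Rik went from 64 to 14 (5.04-fold lower, 2.80 to 9.73) and from 92 to 6 (11.8-fold lower, 5.20 to 32.9). For all 4 the fold was larger in the pools than in bulk. Mt2, a metallothionein that binds zinc and copper, was the most abundant lower member named in bulk, though not on the plates, with 1583 and 970 UMIs in bulk (1.80-fold lower, 1.66 to 1.95) and 518 and 149 on the plates (2.67-fold lower, 2.22 to 3.22). Crip1, a LIM-domain protein, was 1.95- and 1.90-fold lower. Tex19.1, a gene of germ cells and ES cells, was 2.48- and 4.25-fold lower. H2-Bl, a class I histocompatibility gene whose relatives are similar enough that reads may be shared, was 2.71- and 4.22-fold lower. For 6 lower members 1 well held over 50% of the UMIs that were left at 72 h.

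Lists of cell division held no member. None of 20 DNA replication genes and none of 20 mitosis genes passed in both assays, and the medians of the lists on the log2 scale in bulk and in the pools lay near 0, at 0.08 and 0.10 for replication and -0.03 and -0.01 for mitosis. None of 14 genes of glycolysis and hypoxia was a member either. Members are 3.27% and 1.68% of all genes, so lists of this length would hold few.

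The cells sorted at 72 h were not used to choose the members and show in which cells the members were high. As a check of the sort, Pdgfra was at 116 CPM in the PDGFRA+/CD24- fraction and at 15.5, 6.18 and 2.30 in the PDGFRA-negative CD24 terciles T1, T2 and T3. Cd24a was at 14.7 in the PDGFRA+ fraction and at 49.7, 122 and 256 in T1, T2 and T3. The labels do not say which tercile is the lowest, and by Cd24a it is T1. Of the 202 higher members, 42 were at least 1.5-fold above all 3 terciles in the PDGFRA+ fraction, against 10.2% of all genes compared, and 43 were at least 1.5-fold below all 3, against 17.7%. Of the 104 lower members 6 were above and 47 below. With 1 library per fraction no test was possible.

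Lama1 was at 363 CPM in the PDGFRA+ fraction and at 42.0, 14.1 and 20.7 in T1 to T3. Plod2 was at 233 against 31.9, 24.7 and 21.5. Cubn was at 129 against 15.5, 3.53 and 2.30, and Fst at 65.4 against 3.88, 3.53 and 4.61. These genes were thus several-fold higher in the PDGFRA+ fraction than in any tercile. Col4a1, at 98.5 against 39.6, 23.8 and 24.6, had a smaller gap than Lama1. The unsorted 72 h library stood above all 4 sorted fractions for Col4a1 (424 against at most 98.5) and Col4a2 (116 against at most 49.2). The same held for Sparc (1735 against at most 1329), whereas Dab2 at 293 unsorted lay between the fractions (35.3 to 1014). Foxa2 differed less between fractions, at 22 against 10.9, 7.94 and 10.7. Ttr was lowest in the PDGFRA+ fraction, at 16.9 against 30.3, 58.2 and 48.4.

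Crabp1 had the opposite order, at 5.14 CPM in the PDGFRA+ fraction and 97.9, 206 and 291 in T1, T2 and T3. Lbh was at 2.20 in the PDGFRA+ fraction and at 3.11, 16.8 and 111 in the terciles. Ccnd1 was at 2.20 and at 20.2, 52.9 and 82.1. These genes were therefore highest in the tercile with the most Cd24a. Twist1 was at 0.735 in the PDGFRA+ fraction and at 1.55, 12.3 and 7.68 in the terciles, and so was highest in the middle one. Tagln showed no such order among the terciles, at 35.7, 38.8 and 29.9, but was at 1.47 in the PDGFRA+ fraction. As for Col4a1, Col4a2 and Sparc, the unsorted 72 h library stood above all the sorted fractions for Crabp1 and Tagln. It did not for Lbh, Ccnd1 and Twist1. Some named lower members had yet another order. Stra8 was at 279, 177 and 99.0 in T1, T2 and T3 and at 39.0 in the PDGFRA+ fraction. Nanog was at 423, 275 and 175 and at 93.3. Zscan4c was at 381, 178 and 69.8 and at 5.88. These 3 genes were highest where Cd24a was lowest among PDGFRA-negative cells. Pax6 went the other way, at 9.32, 20.3 and 26.1, with 2.20 in the PDGFRA+ fraction. Crip1 was the exception among the named lower members, highest in the PDGFRA+ fraction with 182 against 116, 93.5 and 76.0.

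**Figure D3:**
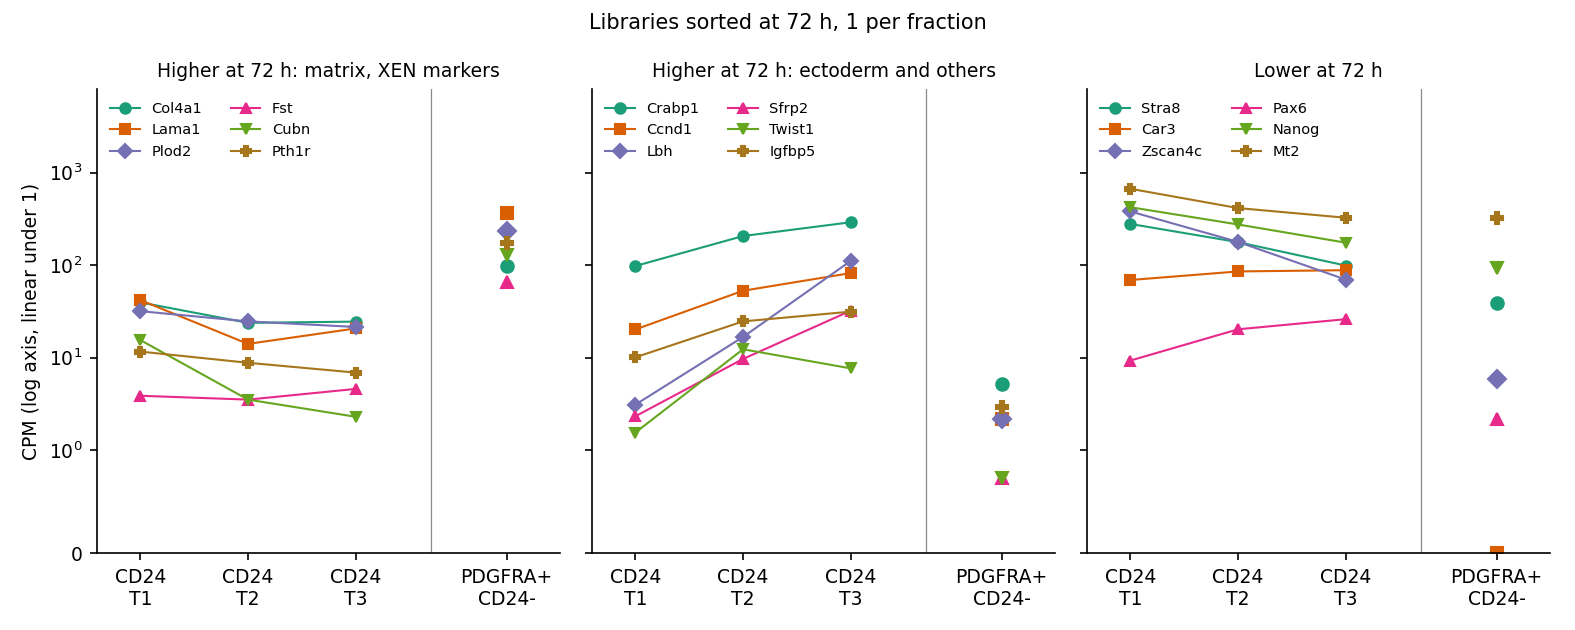
Level in CPM, on a log axis that is linear under 1, of 18 members in the 4 libraries sorted at 72 h, 1 library per fraction; lines join the CD24 terciles T1 to T3 of PDGFRA-negative cells. The left panel shows genes highest in the PDGFRA+ fraction, the middle panel genes lowest there, and the right panel lower members, of which Stra8, Nanog and Zscan4c decline from T1 to T3.

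The libraries sorted at 96 h were also not used by the rule and come in 2 replicates per group. They address in which of the final cell types a member was expressed. Across 8932 genes, edgeR's quasi-likelihood test with Benjamini-Hochberg adjustment called 623 genes higher in XEN-like cells (6.97%) and 511 higher in ectoderm-like cells (5.72%) at an adjusted p under 0.05. Among the genes that were also compared between 60 h and 72 h the shares were 7.28% and 5.58%. Of the 202 higher members 199 were tested, and 35 of them (17.6%) were called higher on the XEN-like side and 26 (13.1%) on the ectoderm-like side. Of the 104 lower members 93 were tested, with 4 called on the XEN-like side and 6 on the other. Both shares of the higher members thus lay above those of all genes, and those of the lower members (4.30% and 6.45%) lay nearer to them. The sorted replicates were not alike. Ectoderm-like replicate 2 held more XEN marker RNA than replicate 1 (1779 against 485 CPM summed over 11 markers, with Dab2 at 242 against 30.6), and XEN-like replicate 1 more than replicate 2 (12049 against 6665). The study's methods call the replicates biological, and the labels do not say whether they came from separate cultures. Of the 39 members called higher in XEN-like cells 21 kept the call when each library was left out in turn, as did 12 of the 32 called higher in ectoderm-like cells, and no sign changed. Without ectoderm-like replicate 1 the members called were 22 and 17, and over the 4 libraries left out in turn they ranged from 22 to 36 and from 17 to 27.

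Lamc1 was at 776 and 297 CPM in the XEN-like and at 33.4 and 47.2 in the ectoderm-like libraries, a log2 difference of 3.80 ± 0.42 (SE; adjusted p = 0.000687, edgeR). Lama1 was at 1085 and 401 against 28.3 and 73.0 (3.93 ± 0.52, adjusted p = 0.00135). For both laminin chains the groups were far apart in every library. Col4a1 was at 1208 and 236 against 61.7 and 158, so that the groups did not overlap but came close (2.75 ± 0.62, adjusted p = 0.0141), and its call was lost under DESeq2, without XEN-like replicate 1 and without ectoderm-like replicate 1 (adjusted p up to 0.164). Col4a2 lost its call without the same libraries (adjusted p = 0.0129, and up to 0.151). Cubn was at 235 and 74.7 against 1.11 and 10.3 (4.86 ± 0.70, adjusted p = 0.00192). Cubilin was thus nearly absent from ectoderm-like replicate 1. Pth1r, Fst, Plod2, P4ha1, Serpinh1, Sparc and Klf4 were also higher in both XEN-like libraries, with adjusted p from 0.0014 to 0.0073, and kept their calls without each library. The calls of F3, Fam134b, Cryab and Epas1 were lost without ectoderm-like replicate 1, and those of Fam134b, Cryab and Epas1 also without XEN-like replicate 2. Fam134b and Cryab were lost under DESeq2 too, and Epas1 without XEN-like replicate 1 and with library totals as the only scaling, and over all these alternatives the adjusted p of the 4 genes went up to 0.217. Foxa2 was at 32.5 and 21.9 against 12.8 and 28.4, groups that overlap (adjusted p = 0.528).

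Crabp1 was at 13.7 and 14.6 CPM in the XEN-like and at 645 and 762 in the ectoderm-like libraries, a log2 difference of -5.55 ± 0.44 (SE; adjusted p = 0.000195, edgeR). Ccnd1 was at 7.11 and 2.73 against 95.6 and 136 (-4.36 ± 0.43, adjusted p = 0.00053), and Sox2 at 1.52 and 3.65 against 55.0 and 50.4 (-4.37 ± 0.51, adjusted p = 0.000843). For these genes the groups lay far apart, more so than the replicates. Lbh, Sfrp2, Igfbp5 and Ptn were likewise higher in both ectoderm-like libraries, with adjusted p from 0.000339 to 0.00117. Twist1 was at 2.03 and 0 against 17.8 and 10.3 (-3.33 ± 0.76, adjusted p = 0.0147), and its call was lost under DESeq2, without XEN-like replicate 2, without ectoderm-like replicate 1 and without ectoderm-like replicate 2 (adjusted p up to 0.228). Nr2f1 and Nr2f2 were higher in both ectoderm-like libraries (adjusted p = 0.00918 and 0.00766), and both calls were lost without XEN-like replicate 1 and without ectoderm-like replicate 1, with adjusted p up to 0.15 and 0.0951. Tagln was at 4.06 and 10.9 against 47.8 and 233 (adjusted p = 0.00483, and 0.0531 without XEN-like replicate 1). Tpm1 and Peg3 were higher in both ectoderm-like libraries as well (adjusted p = 0.011 and 0.0193). The call of Tpm1 was lost without XEN-like replicate 1 and without ectoderm-like replicate 2 (adjusted p up to 0.12), and that of Peg3 without XEN-like replicate 2 and without ectoderm-like replicate 1 (up to 0.208). App and Cnn2 were called in neither direction (adjusted p = 0.0986 and 0.969).

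Stra8, the lower member with most molecules among the RA targets, did not differ between the groups beyond the spread of the replicates, at 48.8 and 7.29 against 82.8 and 9.69 CPM (adjusted p = 0.724). In both groups replicate 1 was the higher library for Stra8 and Nanog. Pax6 was at 0 in both XEN-like libraries and at 46.7 and 21.3 in the ectoderm-like ones (adjusted p = 0.00167). Car3 was at 1.02 and 1.82 against 72.2 and 25.2 (-5.04 ± 0.73, adjusted p = 0.00192). Pax6 and Car3 were thus lower at 72 h than at 60 h and still higher in ectoderm-like than in XEN-like cells at 96 h. Crip1 was higher in XEN-like cells, at 195 and 120 against 54.5 and 25.2 (adjusted p = 0.00376).

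**Figure D4:**
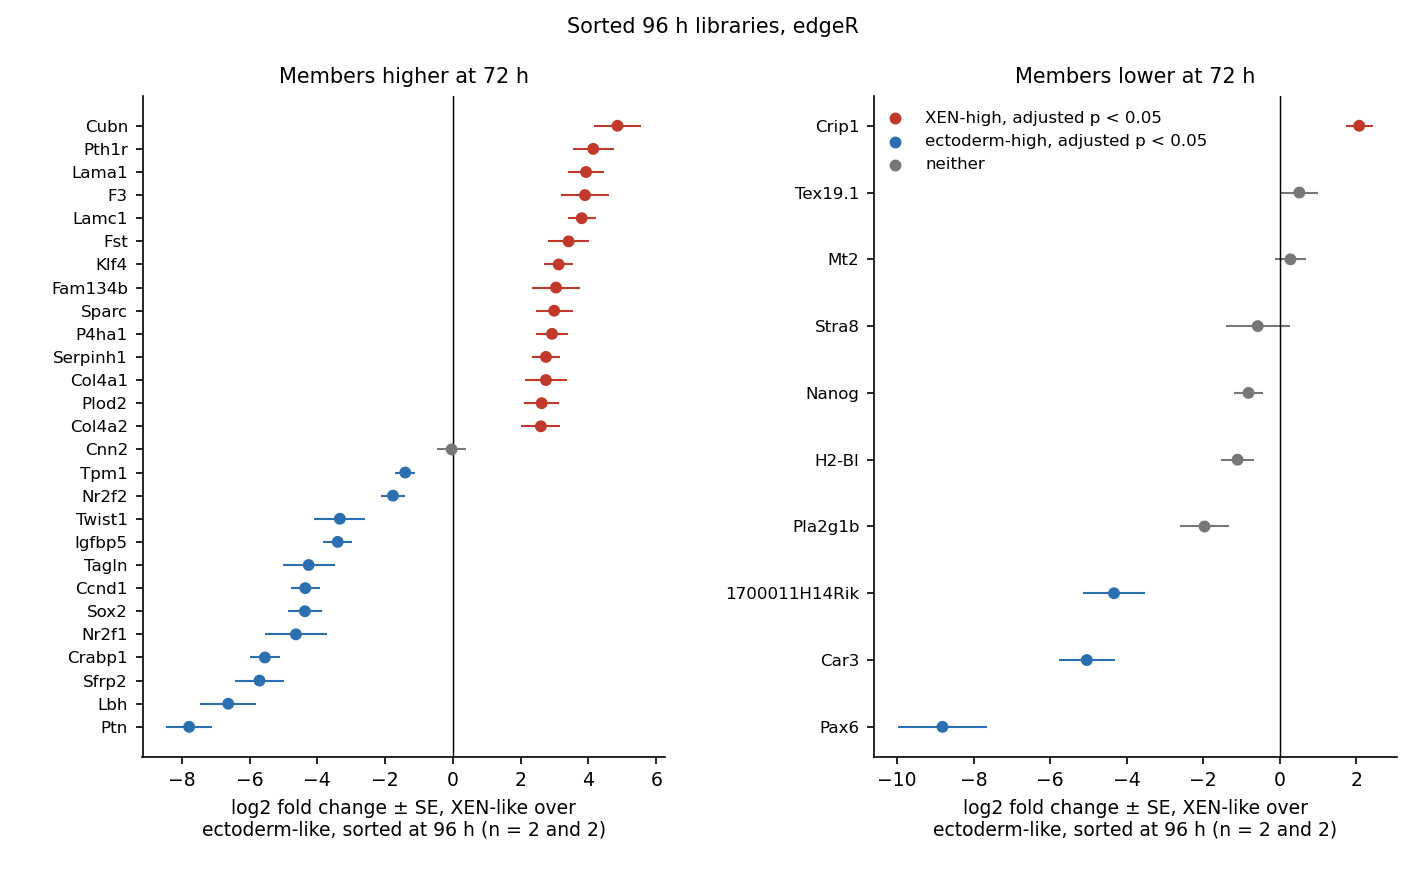
Log2 difference between XEN-like and ectoderm-like cells sorted at 96 h (horizontal axis, positive where XEN-like is higher), with bars of 1 standard error, n = 2 libraries each, for named members that were higher (left) or lower (right) at 72 h. Colours give the edgeR call at an adjusted p under 0.05; the higher members fall on both sides of 0, from Cubn at 4.86 to Ptn at -7.78.

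The later course of the higher members is given by lineage. All 35 higher members that were XEN-high at 96 h had their highest bulk level from 48 h to 96 h at 96 h, as did 86 of all 202 higher members, 87.2% of all XEN-high genes compared and 30.2% of all genes compared. A late peak thus went with XEN-high genes in general. Of the 35, 34 were above all terciles in the PDGFRA+ fraction at 72 h, and 33 were at least 1.5-fold higher at 96 h than at 48 h in both assays. Of the 26 that were ectoderm-high, 16 had their highest bulk level at 72 h, 5 at 84 h, 4 at 96 h and 1 at 48 h, 19 were below all terciles in the PDGFRA+ fraction, and 15 were higher at 96 h than at 48 h in both assays. Of all ectoderm-high genes compared 33.5% were highest at 72 h and 4.66% at 96 h, of the XEN-high ones 1.12% at 72 h, and of all genes 21.3% at 72 h, but the 72 h library took part in choosing the members, so their count there is a description. The 4 lower members that were XEN-high did not share this course, with 1 highest at 96 h, 2 at 60 h and 1 at 48 h. Over all members, 81 of the 202 higher ones were at least 1.5-fold higher at 96 h than at 48 h in both assays and 2 were lower, against 12.3% and 6.23% of all genes compared. Of the 104 lower members 56 were lower at 96 h than at 48 h in both assays and 5 were higher. The 48 h and 96 h libraries took no part in the choice of members.

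The single cells show how the matrix genes were spread over the culture. Cells were thinned to 2000 UMIs each, which left 263 cells at 60 h and 230 at 72 h, and the UMIs of Sparc, Col4a1, Col4a2, Lama1, Lamb1 and Lamc1 were summed per cell. The median was 2 UMIs at both times, while the 95th percentile was 9 at 60 h and 25.6 at 72 h. In mESCs the median was 0 and the 95th percentile 2.7, and at 96 h they were 24 and 61.5. The median moves in steps of whole UMIs and cannot show a smaller shift. The 75th percentile was 3 at 60 h and 4 at 72 h. The share of cells with no matrix UMI was 21.7% at 60 h and 16.1% at 72 h. All of the summed genes but Lamb1 are members, chosen in part by their rise on these plates. Differences in their sum between the 2 plates are therefore a description. At least 10 matrix UMIs were found in 12 of 263 cells at 60 h (4.56%, exact 95% interval 2.38 to 7.83) and in 21 of 230 cells at 72 h (9.13%, 5.74 to 13.6), and these intervals overlap. In those cells the median was 13 UMIs at 60 h and 28 at 72 h. The limit of 10 cuts a range and not a cell type, and 9 and 7 cells lay between 8 and 11 UMIs at the 2 times. At 96 h no cell was at 0, also among cells with few matrix UMIs, and the part of free RNA in the low values was not tested.

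**Figure D5:**
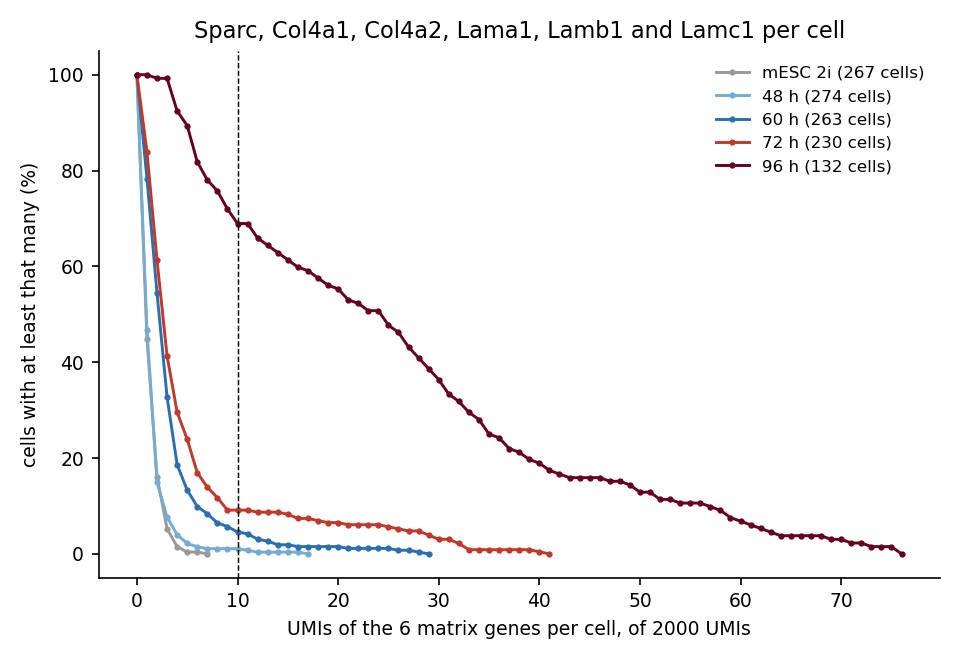
Share of cells (%) with at least the number of UMIs on the horizontal axis, summed over 6 matrix genes, after thinning each cell to 2000 UMIs; the dashed line marks 10 UMIs. The curves of 60 h and 72 h have the same median of 2, and 21.7% of cells at 60 h and 16.1% at 72 h are at 0, while 9.13% of cells at 72 h and 4.56% at 60 h reach 10 UMIs.

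At 72 h Cubn was 12.9-fold higher (6.95 to 24.4) in the 21 cells with at least 10 matrix UMIs than in the 209 cells below, with 26 and 20 UMIs. Fst was 11.1-fold higher (4.04 to 30.8) and Plod2 5.55-fold higher (3.22 to 9.36). Sox2 had 1 UMI against 61, a ratio of 0.163 with a wide interval (0.00406 to 0.944). Of 111 higher members outside the 6 genes that had at least 20 thinned UMIs at 72 h, 29 (26.1%) were at least 1.5-fold higher in the cells with 10 or more matrix UMIs and 52 (46.8%) were at least 1.5-fold lower. Of all 3666 genes with as many thinned UMIs 21.9% were higher and 35% lower, so that with 21 cells in the upper range many genes pass either way. Most cells lay below 10 matrix UMIs at both times, and the values there follow the values that chose the members. There Stra8 went from 5.04 to 0.957 UMIs per 10000 (0.190-fold, 0.132 to 0.266), Crabp1 from 1.29 to 3.76 (2.90-fold, 2.16 to 3.94), and Ccnd1 from 0.418 to 1.32 (3.15-fold, 1.87 to 5.48).

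The share of thinned cells with at least 1 UMI of Stra8 went from 49.8% (43.6 to 56.0) at 60 h to 13% (8.98 to 18.1) at 72 h, and without thinning from 64.5% to 28.1%. In mESCs, which were not exposed to RA, the thinned share was 0.375%. For Hoxb1 it went from 22.1% (17.2 to 27.6) to 4.35% (2.10 to 7.85), and for Car3 from 12.9% (9.12 to 17.6) to 2.61% (0.963 to 5.59). Crabp1 went the other way, from 16.0% (11.8 to 21.0) to 37.8% (31.5 to 44.4), with 1.5% in mESCs. Stra8, Hoxb1, Car3 and Crabp1 were chosen in part by their change on these plates, so their shares are a description. The intervals cover the counting of cells on 1 plate per time point and not the spread between cultures. For Col4a1 the share was 29.7% (24.2 to 35.6) and 37.8% (31.5 to 44.4), for Dab2 14.8% (10.8 to 19.7) and 13.5% (9.34 to 18.6), and for Twist1 1.90% (0.620 to 4.38) and 4.78% (2.41 to 8.40). For these 3 genes the intervals of the 2 plates overlap. Col4a1 and Twist1 are members as well, chosen in part by their change on these plates, so their shares are also a description.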

How the data were processed

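Bulk RNA-seq and SCRB-seq values are counts. Per the labels and the study's methods, the authors aligned 3′ reads with BWA 0.7.4 to mouse RefSeq transcripts (build mm10 in the submitters' processing notes), collapsed reads by UMI and deposited unnormalized counts per gene for each library or well. Rn45s and Gkn2, whose bulk values are partly text, were left out, as were names turned into dates. Wells with more than 2000 UMIs (Rn45s included) were summed per plate. The 60 h and 72 h plates share 183 kept well names, and none held identical values. Counts were scaled to totals.

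Members had at least 20 UMIs in the larger library of each assay and a change of at least 1.5-fold in the same direction in both, with a count of 0 set to 3. Ratio intervals are exact and conditional on the sum of the counts. Members and gene lists were chosen with earlier results of these data known. Named genes are Col4a1, Dab2, Twist1, the 12 higher and 12 lower members with the largest smaller-of-2-assays fold among those with at least 50 UMIs in both, and members of the lists. Other genes were named after their values were seen.

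For the libraries sorted at 96 h the quasi-likelihood test of edgeR 4.0.16 was run under R 4.3.3 (TMM, default filter on low counts, mESC libraries in the same fit, Benjamini-Hochberg over 8932 genes). Tested on simulated data for this comparison (8511 genes), it recovered 11 of 100 genes changed 2-fold and 68 of 100 changed 4-fold, with 12 false calls. Alternatives were other fold and UMI limits, DESeq2 1.42.0, other scalings, well minimums and left-out libraries. SMART-seq2 cells, cultures after sorting and 48 h fractions were not used here. Coordinates and windows are RefSeq's on GRCm38.p6, matched by symbol for 304 members (coordinates) and 225 (windows). Calculations used Python 3.11.15. Of the members of the lists, 2 are not reported here.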

Additional observations from a re-analysis of the deposited data

How the results depend on the processing

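The numbers of higher and lower members were 202 and 104. They moved with the limits: 581 and 335 with a lower fold limit, 48 and 24 at 2-fold, 340 and 245 with at least 10 UMIs, and 52 and 30 with at least 50 UMIs, which follow from the limits themselves. Scaling kept the counts within 1.5 times, at 169 and 117 with DESeq2 size factors and 154 and 144 with TMM factors, which kept 154 of the higher and 104 of the lower members. Other well minimums, left-out deep wells, means over wells and Rn45s in the totals gave 174 to 207 higher and 94 to 110 lower members. For the sorted 96 h libraries DESeq2 called 21 members ectoderm-high (32 by edgeR) and 30 XEN-high (39 by edgeR), and 241 genes ectoderm-high in all (511 by edgeR). Without the low-count filter 822 genes were ectoderm-high. Without each library in turn, members XEN-high ranged from 22 to 36, members ectoderm-high from 17 to 27, genes XEN-high from 145 to 434 and genes ectoderm-high from 143 to 220, the lowest each without ectoderm-like replicate 1. There 1 library is left in a group and is assumed to vary like the others. The replicate block gave 42 and 38 members and 830 and 673 genes. The numbers pair no libraries by the labels, and the correlation of same-numbered deviations was 0.33 for the 1 pair of groups. The bulk folds of Col4a1, Dab2 and Twist1 kept their direction with DESeq2 size factors, as did the pool folds of Col4a1 and Twist1 under other well minimums and as means over wells. The pool fold of Dab2 stayed near none, from -0.12 at the highest well minimum to 0.17 as a mean over wells on the log2 scale. With 1 library per time point, differences between cultures set a limit that depth cannot lower.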

Other observations

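Genes of cholesterol synthesis differed between the assays. Of 21 compared, 3 were at least 1.5-fold higher and 1 lower at 72 h than at 60 h in bulk, whereas in the SCRB-seq pools none was higher and 12 were lower. Of all genes 10.7% were higher and 4.56% lower in bulk, and 19.7% and 16.9% in the pools. The median on the log2 scale was 0.13 in bulk and -0.60 in the pools, against 0.09 and 0.05 for all genes. Fdps, which makes farnesyl diphosphate, was at 0.84-fold in bulk and 0.24-fold in the pools, and Sc4mol, a methyl sterol oxidase, at 1.21- and 0.32-fold. None of these genes is a member.

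The summed level of 8 genes of the 2-cell-like list was 1005 CPM (UMIs per 1000000) in the CD24 tercile T1 sorted at 72 h and 433 and 153 in T2 and T3, 21.3 in the PDGFRA+ fraction, and 89.9 in the unsorted bulk library at 72 h. The unsorted level thus lay below all 3 terciles. On the plates it was 825 CPM at 60 h and 485 at 72 h.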
